A study of Homo sapiens with 10 samples.

Results

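The subunits of AMP-activated protein kinase (AMPK) and the components of the LKB1 complex that activates it were followed as messenger RNA in HEK293T cells, a transformed human embryonic kidney line. The set held 10 of the 58676 genes in the joined count tables, picked by symbol: the AMPK subunit genes PRKAA1, PRKAA2, PRKAB1, PRKAB2, PRKAG1 and PRKAG2, and the LKB1 complex genes STK11, STRADA, STRADB and CAB39. All 10 passed the filter on low counts and were tested. The groups were HEK293T cells overexpressing BRSK2 for 24 h (3 libraries), BRSK1 for 24 h (3 libraries) or hcRED, a red fluorescent protein, for 24 h (2 libraries), and Mock samples (2 libraries), for which the labels give no time or agent. All were grown in DMEM with serum and carried no other labelled change. The labels do not name a vector or say whether the libraries of a group came from separate cultures, so p-values measure the spread between these libraries, which may be technical.

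AMPK is a heterotrimer of a catalytic alpha, a scaffolding beta and a nucleotide-binding gamma subunit, and it is active once its alpha subunit is phosphorylated on the activation loop. The main kinase for that site is LKB1, encoded by STK11, which works in a complex with a STRAD pseudokinase and the scaffold protein encoded by CAB39. The same complex phosphorylates the AMPK-related kinases, BRSK1 and BRSK2 among them, so the overexpressed proteins are themselves LKB1 substrates. Neither phosphorylation nor protein level was measured here.

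The libraries held 16516116 to 24304302 counts. BRSK2 took 6.99%, 9.08% and 10.4% of all counts in BRSK2 replicates 1, 2 and 3, and BRSK1 took 4.72%, 6.52% and 6.96% in BRSK1 replicates 1, 2 and 3, against at most 0.00991% for either gene in a control library. Replicate 1 of each kinase lay nearest to the controls on the first principal component (21.7% of the variance), at -0.01 for BRSK2 and -1.77 for BRSK1, with the other kinase libraries between 13.7 and 29.5 and the controls between -35.5 and -9.14. All 8 markers of HEK293 cells were over 1 CPM in every library. Of 14 markers of other cell types, 5 were over 1 CPM in every library and 1 was at 0 in all. Their summed level was 32.6 to 56.2 CPM apart from BRSK1 replicate 1, at 128 CPM, where the keratin gene KRT6A stood at 27.7 CPM against 1.53 to 4.65 CPM elsewhere. Without BRSK1 replicate 1 the calls of BRSK1 against the controls for PRKAG1 (log2 fold change 0.50) and PRKAA1 (0.28) held, as did that of BRSK2 for PRKAG1 without BRSK2 replicate 1 (0.43).

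PRKAG1, which encodes a gamma subunit, passed the test as higher with each kinase and was the only member to do so. It was 1.28-fold higher with BRSK2 and 1.37-fold higher with BRSK1 than in the controls. PRKAA1, encoding a catalytic subunit, rose with BRSK1 by 1.19-fold. The other members passed the test with neither kinase, no member was called lower, and none was called between BRSK2 and BRSK1. The test was edgeR's quasi-likelihood test, with the Benjamini-Hochberg adjustment over 16936 genes and a threshold of 0.05, and each kinase was set against the average of both control groups, hcRED and Mock, so the comparisons share their controls. With BRSK2, 1 of 10 members was called against 7.82% of all tested genes, and with BRSK1 2 of 10 against 6.43%. Scaling by library totals alone turned the split of all called genes from 808 higher and 517 lower to 494 and 2507 with BRSK2, and from 638 and 451 to 463 and 733 with BRSK1. The median log2 fold change of the 10 members was 0.13 with BRSK2 and 0.12 with BRSK1, beside 0.0024 and 0.0026 over all tested genes.

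**Figure D1:**
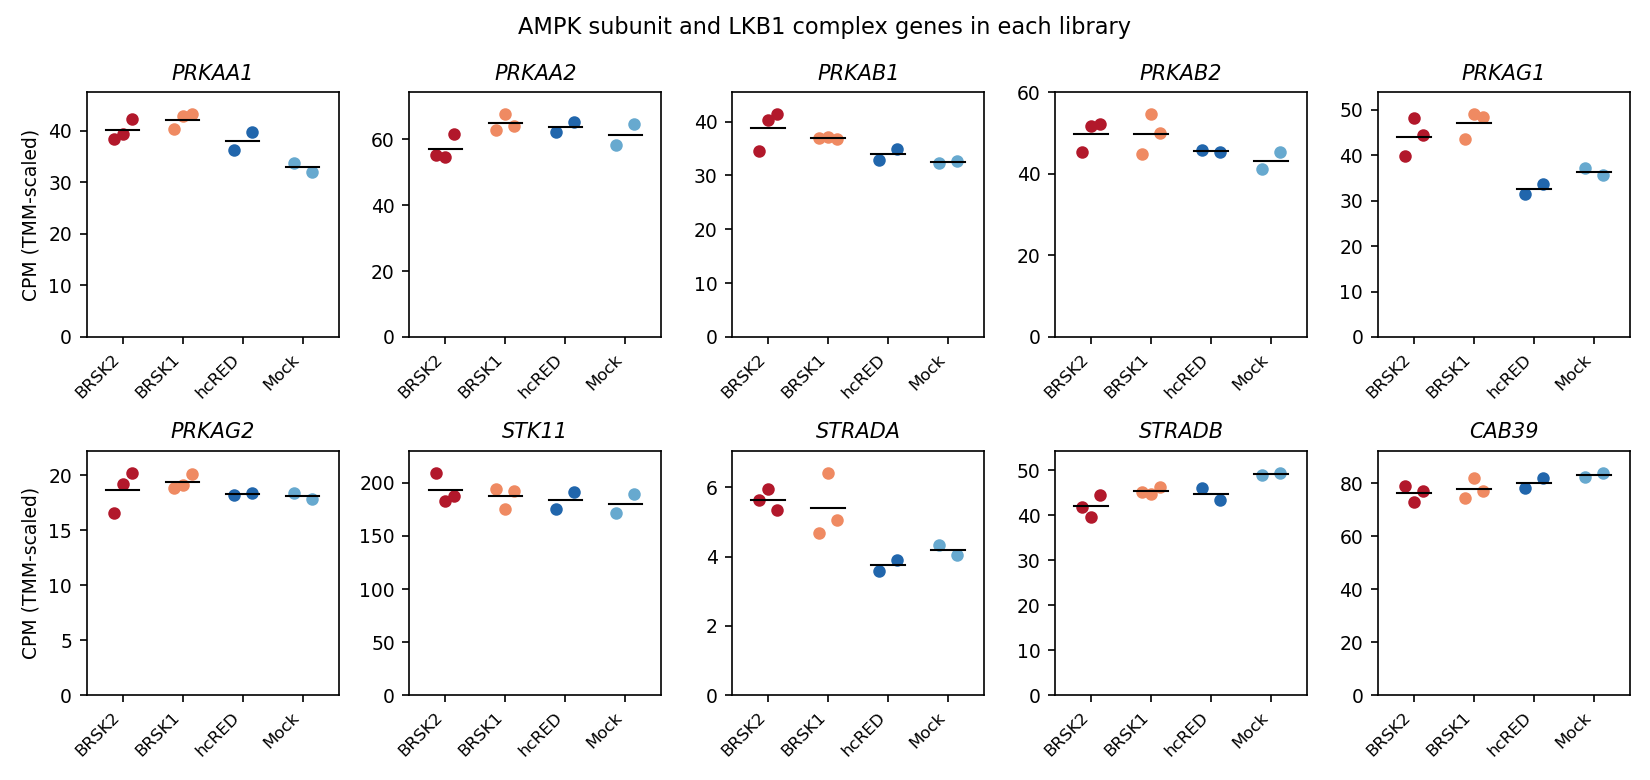
Level of each of the 10 members in every library, in TMM-scaled CPM, with each panel's axis starting at 0 and a bar at the group mean. In the PRKAG1 panel the 6 kinase libraries lie between 39.8 and 49.0 CPM, above the 4 control libraries at 31.4 to 37.1 CPM.

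**Figure D2:**
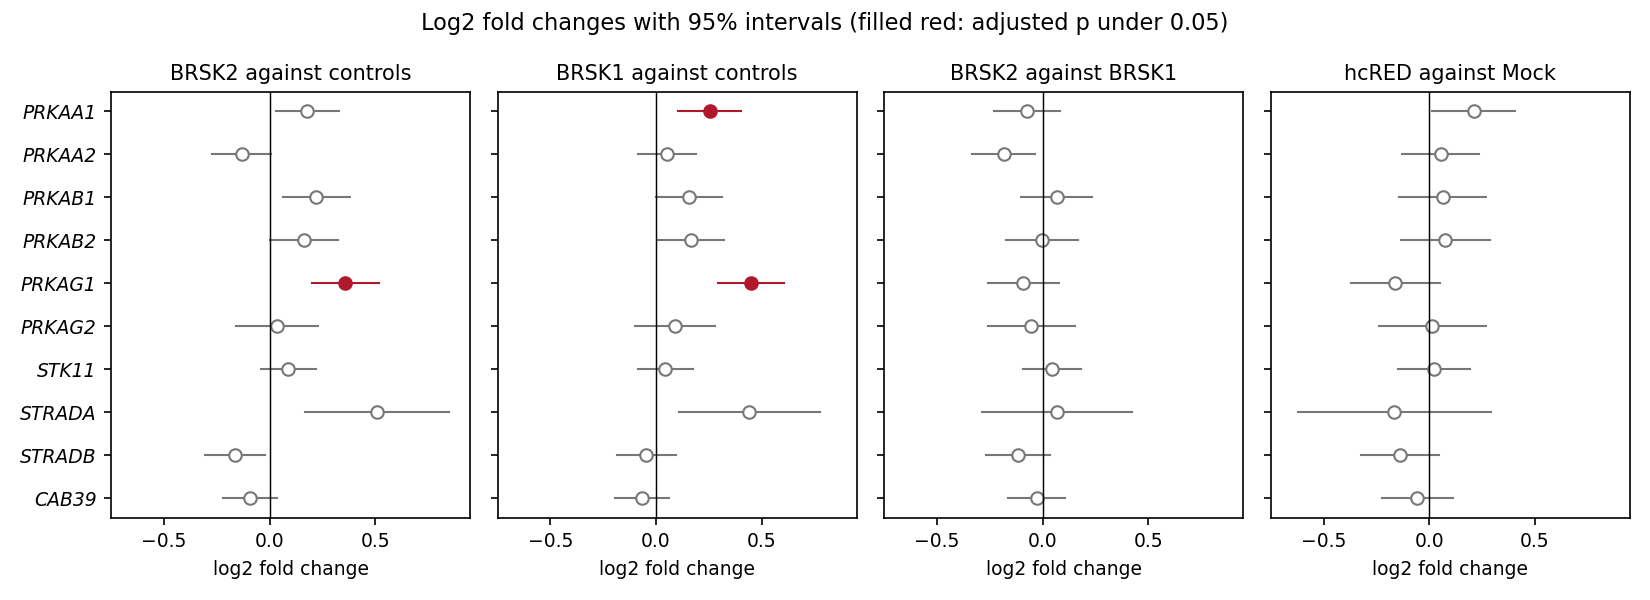
Log2 fold change of each member with its 95% interval in 4 comparisons, filled red where edgeR's adjusted p was under 0.05. PRKAG1 is filled in both comparisons with the controls and PRKAA1 in that of BRSK1, and none is filled in the other 2 comparisons.

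Levels of different genes were compared as CPM per kilobase of gene model. STK11 was the highest member in all 10 libraries, at 21.6 ± 1.30 CPM per kb (SD, n = 10). CAB39 (14.7 ± 0.679) and STRADB (13.9 ± 0.926) came next, with STRADB above CAB39 in 1 of 6 kinase libraries and 0 of 4 control libraries. PRKAG1 (9.02 ± 1.42) and PRKAB2 (8.72 ± 0.774) shared the 4th and 5th places. PRKAA2 (6.59 ± 0.462), PRKAA1 (5.92 ± 0.580) and PRKAB1 (5.76 ± 0.499) shared the 6th to 8th. The order within each of these sets changed between libraries. PRKAA2 was above PRKAA1 in 5 of 6 kinase libraries and 4 of 4 control libraries. PRKAG2 was 9th in every library at 2.77 ± 0.159 and STRADA 10th at 0.729 ± 0.140 CPM per kb. Summed within a class, the alpha subunits reached 12.5 ± 0.820, the beta subunits 14.5 ± 1.20, the gamma subunits 11.8 ± 1.52 and the STRAD pseudokinases 14.6 ± 0.855 CPM per kb. The gamma sum was 12.4 ± 1.13 (n = 3) with BRSK2 and 13.2 ± 0.715 (n = 3) with BRSK1, and 9.86 ± 0.381 (n = 2) with hcRED and 10.7 ± 0.283 (n = 2) in Mock. The lowest kinase library, at 11.2, was above the highest control, at 10.9 CPM per kb. This sum is mostly PRKAG1 and is not separate from the PRKAG1 calls. All members are in the same libraries, so the order is a description of these cells. From bulk RNA, fewer cells with a transcript and less of it per cell cannot be told apart.

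The catalytic subunit gene PRKAA1 (ENSG00000132356) lies on the minus strand of hg38 chromosome 5 at 40759379 to 40798374. Its level was 40.4, 42.9 and 43.2 CPM in BRSK1 replicates 1 to 3, and 38.5, 39.5 and 42.4 CPM in the BRSK2 replicates. The controls stood at 36.3 and 39.8 CPM with hcRED (replicates 1 and 3) and at 33.7 and 32.1 CPM in Mock (replicates 2 and 3). All 3 BRSK1 libraries were above all controls, narrowly so for hcRED replicate 3, while the BRSK2 libraries overlapped with hcRED. With BRSK1 PRKAA1 rose by a log2 fold change of 0.25 ± 0.07 (SE; edgeR adjusted p = 0.0347), and with BRSK2 the value was 0.18 ± 0.07 (adjusted p = 0.132). The 2 control groups themselves stood apart for this gene, hcRED above Mock by 0.21 ± 0.10 (unadjusted p = 0.0363, adjusted p = 0.524, edgeR). Against hcRED alone the BRSK1 value was 0.15 (adjusted p = 0.448) and against Mock alone 0.36 (adjusted p = 0.0158). The BRSK1 call was also lost without BRSK1 replicate 2 (adjusted p = 0.110), BRSK1 replicate 3 (0.166), hcRED replicate 1 (0.159) or Mock replicate 3 (0.101), and held in 17 of 25 alternatives by edgeR, DESeq2 or limma.

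PRKAA2 (ENSG00000162409; hg38 chromosome 1, plus strand, 56645322 to 56715335) encodes the other catalytic subunit. It was measured at 55.1, 54.7 and 61.8 CPM in the BRSK2 libraries and at 62.9, 67.7 and 64.1 CPM in the BRSK1 libraries. Controls were at 62.4 and 65.3 CPM with hcRED and 58.3 and 64.6 CPM in Mock, overlapping with both kinases. Its log2 fold change was -0.13 ± 0.07 with BRSK2 (adjusted p = 0.250, edgeR; 95% interval -0.27 to 0.01) and 0.05 ± 0.07 with BRSK1 (adjusted p = 0.709; -0.09 to 0.19). The BRSK2 libraries all lay below the BRSK1 libraries, with a difference of -0.18 ± 0.07 that did not pass (unadjusted p = 0.0184, adjusted p = 0.291, edgeR).

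The beta subunit genes, whose products join alpha and gamma and bind glycogen, gave higher mean values with the kinases and did not pass the test. PRKAB1 (ENSG00000111725; chromosome 12, plus strand, 119667753 to 119681630) stood at 34.6, 40.2 and 41.4 CPM with BRSK2, 36.9, 37.1 and 36.8 CPM with BRSK1, 32.9 and 34.9 CPM with hcRED, and 32.3 and 32.6 CPM in Mock. The BRSK1 libraries were above all controls, and BRSK2 replicate 1 was below hcRED replicate 3. The log2 fold changes were 0.22 ± 0.08 with BRSK2 (edgeR adjusted p = 0.0731) and 0.16 ± 0.08 with BRSK1 (adjusted p = 0.228). Without BRSK2 replicate 1 the BRSK2 value was 0.30 and passed (adjusted p = 0.0104, edgeR). PRKAB2 (ENSG00000131791; chromosome 1, minus strand, 147155106 to 147172550) was at 45.2, 51.6 and 52.2 CPM with BRSK2, 44.8, 54.6 and 49.9 CPM with BRSK1, 45.8 and 45.3 CPM with hcRED, and 41.0 and 45.4 CPM in Mock. Replicate 1 of each kinase lay within the controls and replicates 2 and 3 above them. Its log2 fold changes were 0.16 ± 0.08 with BRSK2 (adjusted p = 0.211, edgeR) and 0.17 ± 0.08 with BRSK1 (adjusted p = 0.209).

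PRKAG1 (ENSG00000181929) lies on the minus strand of hg38 chromosome 12 at 49002274 to 49019197, and its product carries the AMP- and ATP-binding sites of the complex. It was measured at 39.8, 48.1 and 44.4 CPM in BRSK2 replicates 1, 2 and 3, and at 43.6, 49.0 and 48.4 CPM in BRSK1 replicates 1, 2 and 3. The controls were at 31.4 and 33.7 CPM with hcRED and 37.1 and 35.7 CPM in Mock. Every kinase library was above every control library, as were those of 3.96% of all tested genes, and replicate 1 was the lowest of each kinase. With BRSK2 PRKAG1 rose by a log2 fold change of 0.36 ± 0.08 (edgeR adjusted p = 0.0055), and with BRSK1 by 0.45 ± 0.08 (edgeR adjusted p = 0.00136). The BRSK1 call held in 25 of 25 alternatives, with log2 fold changes of 0.37 to 0.53 and adjusted p up to 0.0196. The BRSK2 call held in 23 of 25 and was lost against Mock alone (0.28, adjusted p = 0.0775) and without BRSK2 replicate 2 (0.29, adjusted p = 0.0564, edgeR). The authors' deposited result tables, from the same experiment, list 879 genes with BRSK1 and 723 with BRSK2. PRKAG1 is the only member in them. It has a log2 fold change of 0.46 with BRSK1 (adjusted p = 0.00513 by the authors' limma) and 0.37 with BRSK2 (adjusted p = 0.0231). Its exons share 12.7% of their bases with the antisense gene DDN-AS1, which held 0 to 7 counts per library, and the strand setting of the counting is not given in the sources used here.

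**Figure D3:**
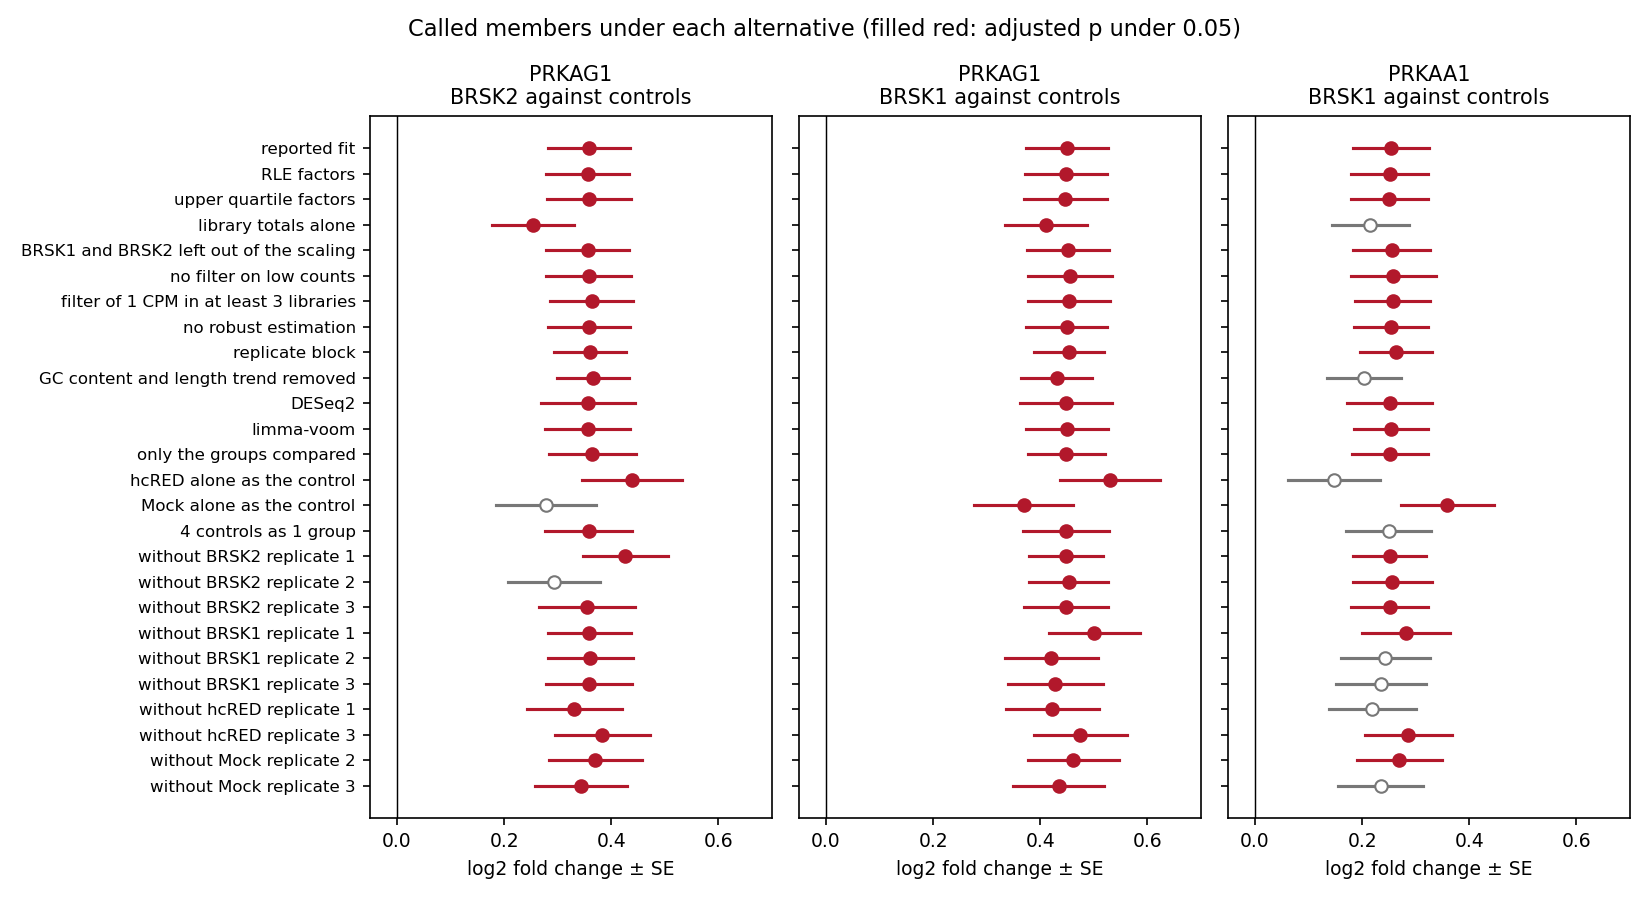
Log2 fold change ± SE of the 3 called member results under the reported fit and each alternative, filled red where the adjusted p was under 0.05. PRKAG1 with BRSK1 stays filled throughout, PRKAG1 with BRSK2 is open in 2 alternatives, and PRKAA1 with BRSK1 is open in 8 of the 25.

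PRKAG2 (ENSG00000106617; chromosome 7, minus strand, 151556111 to 151877125), the other gamma gene, did not pass with either kinase. It stood at 16.6, 19.2 and 20.2 CPM with BRSK2, 18.8, 19.1 and 20.1 CPM with BRSK1, 18.2 and 18.4 CPM with hcRED, and 18.4 and 17.8 CPM in Mock. The BRSK1 libraries were just above the controls and the BRSK2 libraries spread around them. Its log2 fold changes were 0.04 ± 0.09 with BRSK2 (adjusted p = 0.866, edgeR; 95% interval -0.16 to 0.23) and 0.09 ± 0.09 with BRSK1 (adjusted p = 0.620; -0.10 to 0.28). PRKAG3, the third gamma gene and mainly a muscle gene, had 0 counts in all 10 libraries and was not tested.

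The stretches upstream of the start of PRKAG1 and PRKAA1 are shown because these were the members that passed a test. RefSeq (GRCh38.p14) gives 250 bases before the start for 9 of the 10 members, and none was found for STRADA. Both stretches read 5′ to 3′ on the minus strand, PRKAG1 at chr12:49018777-49019026 and PRKAA1 at chr5:40798178-40798427. The PRKAG1 stretch lies wholly within the span of the counted gene given above, and most of the PRKAA1 stretch does. The RefSeq starts are thus inside the counted genes. Capitals mark matches, on either strand, to the GC box GGGCGG and, in PRKAG1, the ETS core CCGGAAG or, in PRKAA1, the antioxidant response core TGACNNNGC.
PRKAG1: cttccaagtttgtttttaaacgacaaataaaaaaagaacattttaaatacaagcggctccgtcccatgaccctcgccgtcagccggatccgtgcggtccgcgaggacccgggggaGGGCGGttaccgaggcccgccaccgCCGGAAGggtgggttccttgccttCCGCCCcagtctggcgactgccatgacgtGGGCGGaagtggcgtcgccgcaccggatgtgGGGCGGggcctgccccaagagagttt
PRKAA1: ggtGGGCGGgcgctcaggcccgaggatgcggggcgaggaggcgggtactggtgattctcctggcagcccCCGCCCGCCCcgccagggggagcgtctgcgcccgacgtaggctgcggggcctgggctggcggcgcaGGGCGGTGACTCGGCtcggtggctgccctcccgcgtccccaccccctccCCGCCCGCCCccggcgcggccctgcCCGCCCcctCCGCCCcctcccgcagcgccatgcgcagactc
PRKAG1 held 4 GC boxes and 1 ETS core 110 bases before the start. PRKAA1 held 8 GC boxes, of which neighbours overlap at 2 places, and 1 antioxidant response core at 109 bases, which abuts a GC box.

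GC boxes stood in 8 of the 9 member promoters, all but that of PRKAB1, and in 42.6% of 35116 RefSeq promoters of the same length. The member windows held from 62% (PRKAG1) to 83.2% (PRKAA2) G and C, against a median of 58% over all promoters. These counts of motifs were not adjusted for base content. The ETS core stood in PRKAB1 and PRKAG1 and in 8.52% of all promoters, and the antioxidant response core in PRKAA1 and 10.9%. CCAAT was found in PRKAB2, STK11 and STRADB and in 32% of all. TGACGTCA (1.65% of all), CACGTG (6.34%), TATAAA (10.7%) and TGAGTCA (4.2%) were in no member's window. Each motif was searched on both strands. The members that passed the test shared GC boxes with members that did not, and no motif searched was in PRKAG1 and PRKAA1 alone.

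STK11 (ENSG00000118046; chromosome 19, plus strand, 1177558 to 1228435), encoding LKB1 itself, did not pass with either kinase. Its levels were 209, 183 and 188 CPM with BRSK2, 195, 175 and 192 CPM with BRSK1, 176 and 191 CPM with hcRED, and 171 and 190 CPM in Mock. All groups overlapped. The log2 fold changes were 0.09 ± 0.06 with BRSK2 (adjusted p = 0.435, edgeR; 95% interval -0.04 to 0.22) and 0.04 ± 0.06 with BRSK1 (adjusted p = 0.741; -0.09 to 0.17).

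The pseudokinase genes, whose products hold LKB1 in its active conformation, gave values of opposite sign. STRADA (ENSG00000266173; chromosome 17, minus strand, 63702832 to 63741970) was at 5.64, 5.95 and 5.34 CPM with BRSK2, 4.68, 6.41 and 5.06 CPM with BRSK1, 3.58 and 3.91 CPM with hcRED, and 4.34 and 4.06 CPM in Mock. As with PRKAG1, all 6 kinase libraries were above all 4 controls. Its log2 fold changes were 0.51 ± 0.17 with BRSK2 (edgeR adjusted p = 0.0580) and 0.44 ± 0.16 with BRSK1 (edgeR adjusted p = 0.103), and neither passed. STRADA had only 76 to 145 counts per library, a counting error of 8.3 to 11.5%. In GENCODE 29 STRADA shares 18.1% of its 10860 exon bases with AC046185.1 on the same strand, which held 0 counts in all libraries. The counted gene model is 6717 bases long, and how reads in the overlap were counted is not given. The level of STRADA per kb and the STRADB share carry this limit.

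STRADB (ENSG00000082146; chromosome 2, plus strand, 201387858 to 201480846) stood at 41.9, 39.5 and 44.5 CPM with BRSK2, 45.2, 44.8 and 46.2 CPM with BRSK1, 46.0 and 43.4 CPM with hcRED, and 49.0 and 49.4 CPM in Mock. The BRSK2 libraries were below all BRSK1 libraries, the Mock libraries were the highest, and hcRED overlapped with both kinases. Its log2 fold changes were -0.16 ± 0.07 with BRSK2 (adjusted p = 0.151, edgeR) and -0.05 ± 0.07 with BRSK1 (adjusted p = 0.737). CAB39 (ENSG00000135932; chromosome 2, plus strand, 230712845 to 230821075) was at 79.1, 72.8 and 77.1 CPM with BRSK2, 74.4, 82.0 and 77.2 CPM with BRSK1, 78.0 and 81.9 CPM with hcRED, and 82.2 and 83.9 CPM in Mock. The kinase libraries overlapped with hcRED. The log2 fold changes were -0.09 ± 0.06 with BRSK2 (adjusted p = 0.386, edgeR; 95% interval -0.22 to 0.03) and -0.07 ± 0.06 with BRSK1 (adjusted p = 0.574; -0.19 to 0.06). Its paralog CAB39L, with 38 to 98 counts per library, gave -0.40 ± 0.20 and -0.42 ± 0.19 (adjusted p = 0.227 and 0.202, edgeR).

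Counted without a test, 2 of 10 members (PRKAG1 and STRADA) had all BRSK2 libraries above all controls, where 9.09% of all tested genes did. With BRSK1 there were 5 of 10 (those 2, PRKAA1, PRKAB1 and PRKAG2), where 9.93% of all genes did. No member had all libraries of a kinase below the controls. Of 16936 tested genes, 1389 did with BRSK2 and 1428 with BRSK1. Between BRSK2 and BRSK1, PRKAA2 and STRADB stood apart (17.7% of all genes), and between hcRED and Mock, with 2 libraries each, 6 of 10 members did (40.3% of all genes). No member was called between BRSK2 and BRSK1 by edgeR, DESeq2 or limma-voom, where edgeR called 0.348% of all genes, and PRKAA2 alone had an unadjusted edgeR p under 0.05. Nor was a member called between hcRED and Mock by these tools (0.0295% of all genes by edgeR), where PRKAA1 alone had an unadjusted edgeR p under 0.05. For PRKAG1 the difference of BRSK2 from BRSK1 was -0.09 with a 95% interval of -0.26 to 0.08, and that of hcRED from Mock -0.16 with an interval of -0.37 to 0.05.

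The makeup of each class was read as the share of 1 paralog in the length-scaled counts of its class, in which scaling between libraries cancels. PRKAG2 made up 22.0%, 21.3% and 23.5% of gamma counts in BRSK2 replicates 1 to 3 and 22.6%, 20.9% and 21.9% in the BRSK1 replicates, against 28.1% and 26.9% with hcRED and 25.1% and 25.2% in Mock. All 6 kinase libraries were below all controls, by 4.09 percentage points on average with BRSK2 and 4.55 with BRSK1. The share is built from the PRKAG1 and PRKAG2 counts, so it is not separate from the PRKAG1 calls. PRKAG2 itself had log2 fold changes of 0.04 and 0.09, which did not pass. PRKAA2 made up 50.2%, 49.3% and 50.6% of alpha counts with BRSK2, 52.2%, 52.6% and 51.0% with BRSK1, 54.6% and 53.5% with hcRED, and 54.8% and 58.6% in Mock. Again the kinase libraries were all below the controls, and the BRSK2 libraries were all below those of BRSK1. STRADB made up 93.9 ± 0.649% of STRAD counts with BRSK2 (SD, n = 3) and 94.6 ± 0.916% with BRSK1 (n = 3), against 96.1 ± 0.256% in the controls (n = 4), with no overlap. PRKAB2 made up 59.5 ± 0.431% and 60.5 ± 2.30% of beta counts with BRSK2 and BRSK1 (n = 3 each), against 60.5 ± 1.14% in the controls (n = 4), and overlapped. Two-sided exact permutation tests gave p = 0.0571 for the gamma, alpha and STRAD shares with each kinase, the smallest p that 3 against 4 libraries allow, and 0.0762 after adjustment over 8 tests. For the beta share the exact p was 0.343 with BRSK2 and 1.0 with BRSK1. No share could pass 0.05 in this design, and the comparisons share their controls. Shares were not computed for gene pairs outside these classes.

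**Figure D4:**
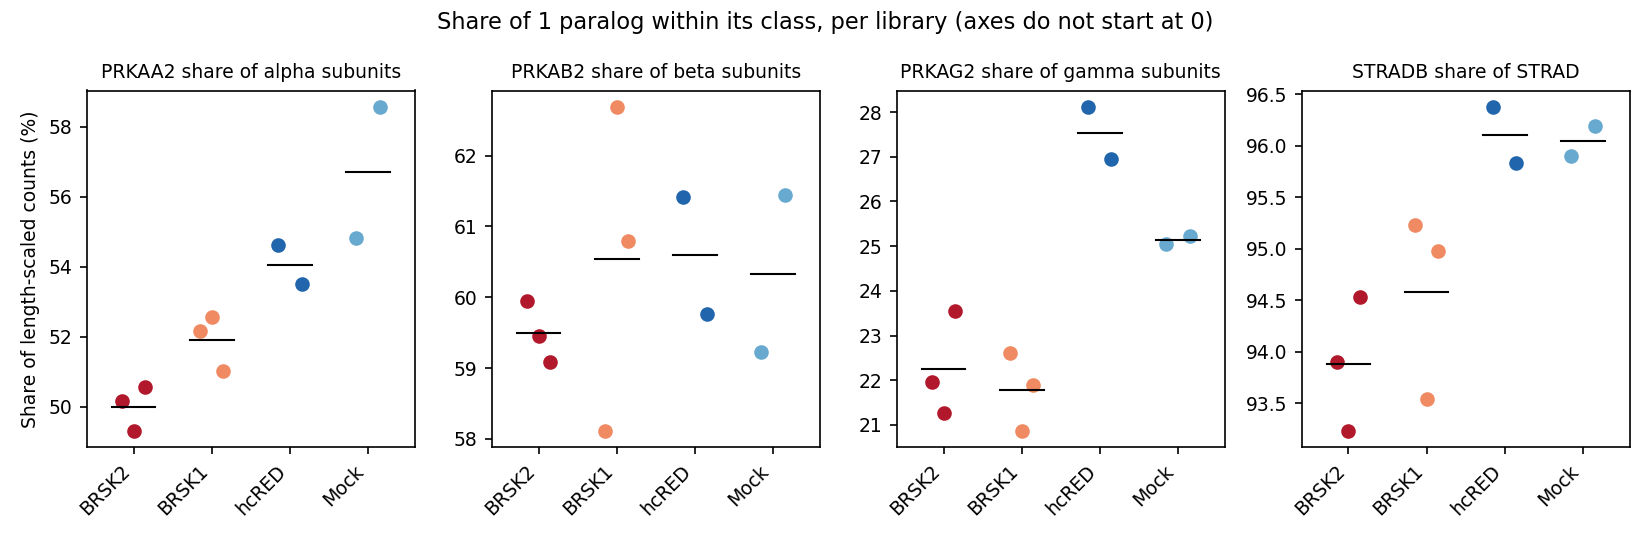
Share of 1 paralog in the length-scaled counts of its class in each library, in percent, with a bar at the group mean and axes that do not start at 0. The PRKAA2, PRKAG2 and STRADB shares of the 6 kinase libraries lie below those of the 4 controls, and the PRKAB2 shares overlap.

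Within a library, PRKAG1 stood at 3.25 to 3.79 times PRKAG2 per kb in the kinase libraries and at 2.56 to 2.99 times in the controls. PRKAA2 stood at 0.972 to 1.11 times PRKAA1 in the kinase libraries and at 1.15 to 1.41 times in the controls. These ratios restate the gamma and alpha shares above. PRKAG1 was above PRKAB2 in 6 of 6 kinase libraries and in 1 of 4 control libraries. Over the 10 libraries the levels of PRKAG1 and STRADA were the most alike of any member pair (Pearson r = 0.887 of log2 CPM), and PRKAB1 and CAB39 the least (r = -0.664). Outside the lists used here, the levels most like PRKAG1 were those of NFKBIZ (r = 0.96), COL6A5 (0.95) and KLHL3 (0.95), and the most like PRKAA1 were NNT-AS1 (0.98), PRSS23 (0.97) and LINC00174 (0.97). These values describe 10 libraries that share group, depth and scaling.

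The regulators of AMPK were read from a list of 28 upstream genes (kinases, phosphatases, nutrient sensors and scaffolds). With BRSK2 4 rose and none fell, against 4.77% higher and 3.05% lower over all genes, and the median log2 fold change was 0.01. SESN2, a stress-induced protein that acts on AMPK and mTORC1, was at 211, 261 and 265 CPM with BRSK2, 164, 174 and 180 CPM with BRSK1, 152 and 186 CPM with hcRED, and 150 and 143 CPM in Mock. All BRSK2 libraries were above all others. It rose by 0.64 ± 0.08 with BRSK2 (edgeR adjusted p = 6.47e-05). PRKCZ, an atypical protein kinase C that phosphorylates LKB1, rose by 0.38 ± 0.08 (edgeR adjusted p = 0.00379), and TAB1, the partner of the kinase TAK1, by 0.31 ± 0.06 (edgeR adjusted p = 0.00321). AXIN1, a scaffold for LKB1 and AMPK, rose by 0.23 ± 0.07 (edgeR adjusted p = 0.0367), a call lost without any 1 BRSK2 library, hcRED replicate 1 or Mock replicate 3 (adjusted p 0.0612 to 0.166). Against Mock alone the TAB1 call was lost (adjusted p = 0.0843, edgeR). With BRSK1 none of the 28 was called by edgeR, which called 6.43% of all genes, and 5 had an unadjusted p under 0.05. DESeq2 called 3 with BRSK1 and 5 with BRSK2, and limma-voom 1 and 4. Between BRSK2 and BRSK1 edgeR called 1 of the 28, SESN2, and 0.348% of all genes.

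Among 10 other AMPK-related kinases that LKB1 activates, 2 rose with BRSK2 and 1 with BRSK1, against 4.77% and 3.77% higher over all genes. NUAK1 rose by 0.28 ± 0.08 with BRSK2 (edgeR adjusted p = 0.0232) and by 0.37 ± 0.07 with BRSK1 (edgeR adjusted p = 0.00512). The BRSK1 call was lost without BRSK1 replicate 3 (0.33, adjusted p = 0.0544), and the BRSK2 call without BRSK2 replicate 2 or 3, either hcRED library or Mock replicate 3 (adjusted p 0.0507 to 0.110). Against hcRED alone both NUAK1 calls were lost, at 0.16 with BRSK2 (adjusted p = 0.362, edgeR) and 0.25 with BRSK1 (adjusted p = 0.181, edgeR). SIK3, a salt-inducible kinase, rose with BRSK2 by 0.28 ± 0.07 (edgeR adjusted p = 0.0181), and its call was lost without BRSK2 replicate 2 or hcRED replicate 1 (adjusted p 0.101 to 0.114). The median of the 10 was 0.14 with BRSK2 and 0.0005 with BRSK1.

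Of 40 tested genes for AMPK substrates, 6 rose with BRSK2 and 4 with BRSK1, and none fell. Over all genes BRSK2 gave 4.77% higher and 3.05% lower, and BRSK1 3.77% higher and 2.66% lower. TXNIP, which restrains glucose uptake, stood at 23.5, 33.3 and 34.2 CPM with BRSK2, 33.5, 44.8 and 44.7 CPM with BRSK1, 18.7 and 21.4 CPM with hcRED, and 14.5 and 16.4 CPM in Mock. Every kinase library was above every control. It rose by 0.78 ± 0.14 with BRSK2 (edgeR adjusted p = 0.00309) and by 1.22 ± 0.13 with BRSK1 (edgeR adjusted p = 0.000224). Against hcRED alone the BRSK2 value for TXNIP was 0.60 and did not pass (adjusted p = 0.0592, edgeR). HDAC5, a class IIa histone deacetylase, rose by 0.33 ± 0.06 with BRSK2 (edgeR adjusted p = 0.000745) and by 0.24 ± 0.06 with BRSK1 (edgeR adjusted p = 0.0142), the latter lost without BRSK1 replicate 3, hcRED replicate 1 or hcRED replicate 3 (adjusted p 0.0519 to 0.0932). With BRSK2 the CREB coactivator gene CRTC2 (0.30) and PPP1R12C (0.26), a myosin phosphatase subunit, also rose, and each was lost without BRSK2 replicate 2 or 3, PPP1R12C also without hcRED replicate 1 or Mock replicate 3. With BRSK1 PFKFB2 (0.30), a regulator of glycolysis, and ULK2 (0.35), an autophagy kinase, rose, and both were lost without BRSK1 replicate 2 or 3, hcRED replicate 1 or Mock replicate 2, PFKFB2 also without BRSK1 replicate 1, and ULK2 also without hcRED replicate 3 or Mock replicate 3. The list medians were 0.06 with BRSK2 and -0.03 with BRSK1.

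In the mTORC1 arm, which AMPK restrains, 2 of 20 genes rose and 1 fell with BRSK2, and 1 rose and 3 fell with BRSK1. Beside them, 4.77% of all genes rose and 3.05% fell with BRSK2, and 3.77% rose and 2.66% fell with BRSK1. ULK3, a kinase related to the autophagy kinases, rose by 0.35 ± 0.06 with BRSK2 (edgeR adjusted p = 0.0009) and 0.32 ± 0.06 with BRSK1 (edgeR adjusted p = 0.00441). Against hcRED alone the BRSK1 call of ULK3 was lost (adjusted p = 0.0728, edgeR). AKT1S1, the mTORC1 inhibitor PRAS40, fell by 0.33 ± 0.06 with BRSK1 (edgeR adjusted p = 0.0023) and by 0.21 ± 0.06 with BRSK2 (edgeR adjusted p = 0.0328), the BRSK2 call being lost without BRSK2 replicate 2 or 3, either hcRED library or Mock replicate 2 (adjusted p 0.0870 to 0.177). DDIT4, a stress-induced mTORC1 inhibitor, fell by 0.56 ± 0.11 with BRSK1 (edgeR adjusted p = 0.00898), lost without BRSK1 replicate 2 or 3 (adjusted p 0.0515 to 0.0541). Against hcRED alone DDIT4 was -0.35 and NPRL3, a regulator of mTORC1 at the lysosome, -0.13, and neither passed (adjusted p = 0.220 and 0.520, edgeR). For DDIT4 the controls ran from 68.1 CPM (hcRED replicate 3) to 120 CPM (Mock replicate 2), and BRSK1 replicate 1, at 71.4 CPM, lay within them. NPRL3 fell with BRSK1 (-0.25) and TELO2 rose with BRSK2 (0.23), and each was lost without hcRED replicate 1, Mock replicate 3 or replicate 3 of its kinase, NPRL3 also without BRSK1 replicate 2, and TELO2 also without BRSK2 replicate 1 or hcRED replicate 3.

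Among 22 transcription factors and metabolic genes at the output of AMPK signalling, 1 rose and 1 fell with BRSK2, and 3 fell with BRSK1. The shares of all genes were 4.77% higher and 3.05% lower with BRSK2, and 3.77% higher and 2.66% lower with BRSK1. ESRRA, a nuclear receptor of mitochondrial gene programmes, was at 68.5, 77.0 and 76.6 CPM with BRSK2 against 51.1 to 56.6 CPM in the controls and rose by 0.46 ± 0.07 (edgeR adjusted p = 0.000156). TFAM, the mitochondrial transcription factor, fell by 0.20 ± 0.06 (edgeR adjusted p = 0.0395), a call lost without BRSK2 replicate 2 or 3 or any 1 control library (adjusted p 0.0599 to 0.234). With BRSK1 the glucose transporter gene SLC2A1 fell by 0.42 ± 0.08 (edgeR adjusted p = 0.00261), and against hcRED alone it did not pass (adjusted p = 0.0534). HK2 (-0.40) and FASN (-0.24) also fell with BRSK1 but overlapped with hcRED, and their adjusted p against hcRED alone was 0.658 and 0.697 (edgeR). Both calls were also lost without BRSK1 replicate 2 or 3, hcRED replicate 1, Mock replicate 3 or BRSK2 replicate 2, HK2 also without Mock replicate 2, and FASN also without hcRED replicate 3 or BRSK2 replicate 3 (adjusted p 0.0519 to 0.229). The list medians were -0.08 with BRSK2 and -0.08 with BRSK1, and -0.13 for hcRED against Mock.

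Other alternatives ended the calls of several of these list genes. Against hcRED alone those of AXIN1, SIK3, CRTC2, PPP1R12C, AKT1S1 and TFAM with BRSK2 and of PFKFB2 and ULK2 with BRSK1 were lost (edgeR adjusted p 0.0525 to 0.175). Against Mock alone those of AXIN1, PPP1R12C, TELO2, AKT1S1 and TFAM with BRSK2 and of HDAC5, PFKFB2 and ULK2 with BRSK1 were lost (edgeR adjusted p 0.0511 to 0.182). Under library totals alone AXIN1 (0.12), SIK3 (0.17), NUAK1 (0.18), CRTC2 (0.20), PPP1R12C (0.15) and TELO2 (0.12) did not pass with BRSK2. With GC and length trends removed AXIN1 (0.15), TELO2 (0.15) and TFAM (-0.15) with BRSK2 and FASN (-0.15) with BRSK1 did not pass. With the 4 controls as 1 group DDIT4, NPRL3, HK2 and FASN with BRSK1 did not pass (edgeR adjusted p 0.0715 to 0.254). With only the groups compared in the fit DDIT4 was lost, and without robust estimation TFAM, NPRL3 and FASN (edgeR adjusted p 0.0502 to 0.0595).

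**Figure D5:**
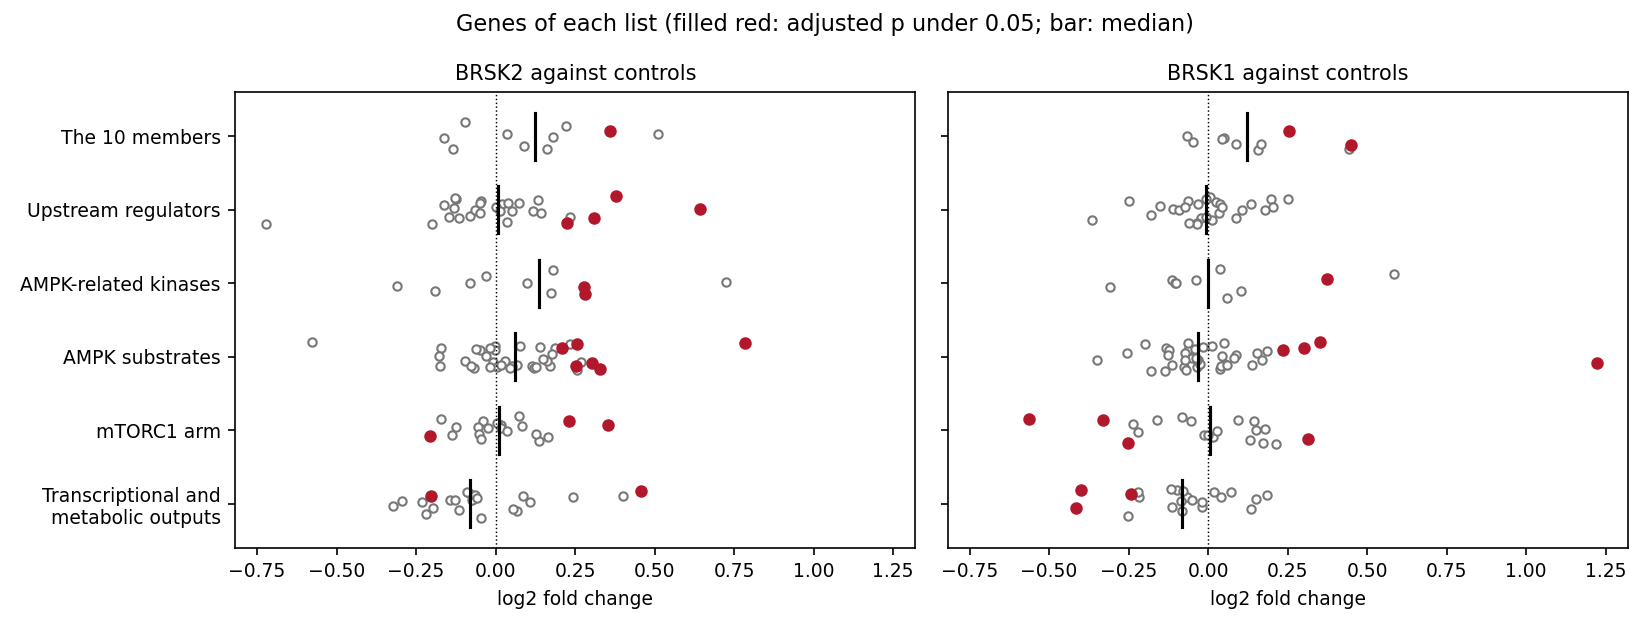
Log2 fold changes of the tested genes of each list against the controls, filled red where edgeR's adjusted p was under 0.05, with a bar at the list median. The called genes are 1 of 10 members, 4 of 28 upstream genes and 6 of 40 substrates with BRSK2, and 2, 0 and 4 with BRSK1. Of all tested genes 7.82% were called with BRSK2 and 6.43% with BRSK1.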

How the data were processed

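RNA from 10 HEK293T libraries was sequenced, and samples were grouped by the genotype in the labels. The authors deposited tables of raw counts, 1 for each kinase, both with the control libraries. Both tables were joined on the gene ID, and 0 control counts differed between them. The submitters' processing notes name STAR, edgeR, limma and hg38 without versions, and how reads were counted, with which strand setting and annotation, is not given in the sources used here. Result tables, also deposited by the authors, give log2 fold changes and adjusted p-values, per the file headers. The count tables also give gene length, used for the levels per kb. Overlaps between genes were read from the GENCODE 29 annotation, where 95.3% of genes had the deposited start and end (PRKAG1 and STRADA did not).

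The counts were fitted with edgeR 4.0.16 under R 4.3.3, using TMM scaling, the filterByExpr filter (count of at least 10, total of at least 15) and the robust quasi-likelihood test, with 4 group means over all 10 libraries. CPM values are TMM-scaled, and SE is the absolute log2 value over the root of the F statistic. A prior count of 2 served log2 CPM. No fold threshold was used. Replicate pairs differed by more than sampling noise. The scripts were tested on simulated data. DESeq2 1.42.0, limma 3.58.1 and other scalings, filters, controls and left-out libraries served as alternatives, compared in the closing section. Figures used matplotlib 3.10.9.

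The members and lists were chosen with earlier results of these data known. Named genes were the members, their paralogs, up to 4 called genes with the smallest p per list and kinase, and the 3 genes most like each called member by Pearson correlation.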

Additional observations from a re-analysis of the deposited data

Results flagged for a closer look

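SESN2 and FASN differed between the kinases. SESN2 was higher with BRSK2 than with BRSK1 by a log2 fold change of 0.51 ± 0.08 (edgeR adjusted p = 0.0173), and all 3 BRSK2 libraries were above all 3 BRSK1 libraries. The call was lost without BRSK2 replicate 2 or 3 or BRSK1 replicate 1 or 2, with adjusted p of 0.0676 to 0.0894, and with GC and length trends removed (0.43, adjusted p = 0.154, edgeR). FASN, the fatty acid synthase gene, was higher with BRSK2 by 0.35 ± 0.08 (edgeR adjusted p = 0.0438), at 1454, 1229 and 1231 CPM against 1098, 930 and 1045 CPM. That call was lost without any 1 kinase library or either hcRED library, with adjusted p of 0.064 to 0.191, and under library totals alone (0.28), with GC and length trends removed (0.21, adjusted p = 0.178, edgeR), without robust estimation and with only the kinase groups in the fit.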

How the results depend on the processing

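The number of members called with BRSK2 (1) was 4 under library totals alone (PRKAG1 higher, and PRKAA2, STRADB and CAB39 lower), 3 with a replicate block (adding PRKAB1 and STRADA), 2 with GC and length trends removed (adding PRKAA1) and 0 against Mock alone, and ran from 0 to 2 with 1 library left out (0 without BRSK2 replicate 2, 2 without BRSK2 replicate 1). With BRSK1 (2) it was 1 under library totals alone, with GC and length trends removed, against hcRED alone, with the 4 controls as 1 group and at the threshold of 0.01, PRKAA1 being lost each time, and 1 to 2 with 1 library left out. It was 0 between BRSK2 and BRSK1 and between hcRED and Mock in every alternative run. Calls over all tested genes moved as well, so the member counts are not particular to the members. With BRSK2 they went from 1325 to 3001 under library totals alone and to 2153 with the block. They were 2211 without BRSK2 replicate 1 and 641 without BRSK2 replicate 2. With BRSK1 they went from 1089 to 1196 under library totals alone and to 133 against hcRED alone. Library totals alone shifted the median of all genes with BRSK2 to -0.102, and split the genes called between the kinases into 24 higher and 182 lower, against 39 and 20.

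Values near 0 changed sign. With BRSK2 PRKAG2 was -0.0682 and STK11 -0.0165 under library totals alone, and PRKAG2 -0.0213 to 0.114 with 1 library left out. With BRSK1 against hcRED alone STRADB was 0.0214 and the BRSK2 transcript 0.113. Between the kinases, PRKAB1 was -0.0008 and STK11 -0.0224 under library totals alone, and PRKAA1 0.0401, PRKAB2 0.0469, STK11 -0.0527 and CAB39 0.0298 with GC and length trends removed. With 1 library left out, PRKAB2 ran from -0.0724 to 0.0689, PRKAG2 from -0.109 to 0.0271, STK11 from -0.0152 to 0.0842, STRADA from -0.0204 to 0.213 and CAB39 from -0.0602 to 0.0112. Between the controls, STK11 was -0.0467 with the block and -0.0518 to 0.101 with 1 library left out, PRKAA2 -0.0195 to 0.131 and PRKAG2 -0.0042 to 0.0355. The PRKAB2 share with BRSK1 differed by -0.0548 points from hcRED alone and by -1.01 to 1.28 from the controls with 1 library left out. The cause was not tested.

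Likeness of libraries with the same replicate number was read from their deviations from the group means. Over 12 same-numbered pairs the correlation of deviations ran from -0.051 to 0.161, with a median of 0.046. Over 25 differently numbered pairs it ran from -0.14 to 0.1, with a median of -0.057. Of 10 libraries, 6 correlated best with their own number. In hcRED and Mock, with 2 libraries each, the deviations are equal and opposite, so part of this contrast is fixed in advance. BRSK1 replicate 3 thus gave 0.088 with hcRED replicate 3 and -0.088 with hcRED replicate 1. These correlations therefore cannot decide how alike same-numbered libraries are. Whether the numbers mark a shared batch was not tested. With the replicate block all calls went from 1089 to 1999 with BRSK1, from 1325 to 2153 with BRSK2, from 59 to 267 between the kinases and from 5 to 433 between the controls. At the threshold of 0.01 the counts were 479, 256, 6 and 0, and over the other alternatives they ran from 346 to 3001 with BRSK2, 133 to 1999 with BRSK1, 7 to 267 and 0 to 433, the lowest with BRSK2 without BRSK2 replicate 3 and with BRSK1 against hcRED alone. Depth limits STRADA most.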
